A study of Homo sapiens with 47 samples.

Results

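The SLC25 family comprises the mitochondrial carriers, membrane proteins that move nucleotides, phosphate, carboxylates, amino acids and cofactors across the inner membrane of the mitochondrion. Members were taken as every gene row of the count table whose symbol starts with SLC25A, which gave 47 of 18651 rows. They comprise 41 carrier genes and 6 antisense or pseudogene rows. Levels were described in 47 single HEK293 cells, HEK293 being a long-established line made by transforming cultured cells of human embryonic kidney with sheared adenovirus DNA. The cells were grown in DMEM with glutamine and fetal calf serum, with no treatment named, so all 47 form 1 group from 1 run and no conditions were compared. Each cell was lysed in its own chamber of a Fluidigm C1 circuit together with 20000 molecules of ERCC spike-in RNA, a set of synthetic transcripts. Poly(A) RNA was copied by template switching, and the 5' ends of transcripts were counted by unique molecular identifiers (UMIs), random tags that mark single cDNA molecules. Cells are named by the number in their labels.

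Carriers share a fold of repeated pairs of membrane helices, and most exchange a substrate of the matrix for a substrate outside. The ADP/ATP carriers export the ATP made by oxidative phosphorylation and bring ADP in, and the phosphate carrier supplies the phosphate for it. Carriers are encoded in the nucleus, made in the cytosol and imported, so their mRNAs are in the poly(A) pool measured here.

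A cell held 29325 to 138647 endogenous UMIs with a median of 59689, so 1 UMI in the median cell stood for 0.168 UMIs per 10000. Spike-in recovery was 17.7% over all cells and 12.9% to 23.6% in single cells. UMIs count tags at transcript 5' ends, so they were compared between genes without division by length. This takes molecules of all lengths to be tagged alike, which was not tested. Of the marker lists, all 7 HEK293 genes had UMIs, led by CA2 with 1215 and UCHL1 with 817, and their summed share was 0.0378% to 0.199% of a cell. The lowest of them were PAX2, with 8 UMIs in 5 cells, and LIN28B, with 90 in 28 cells. The fibroblast list had 13 UMIs in 2 measured rows and the blood list 4 UMIs in 2 measured rows, CD74 being at 0. The list for differentiated kidney tubule had 26 UMIs in its 1 measured row, LRP2. Cell 52 stood apart, with 12.1% of its UMIs from mitochondrially encoded mRNAs against at most 5.02% in the other cells.

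The 41 carrier rows held 11034 UMIs, 0.378% of all endogenous UMIs (95% exact binomial interval 0.371% to 0.385%, counting error only). A cell gave them 0.263% (cell 52) to 0.501% (cell 15) of its UMIs, with a median of 0.367%. Use was uneven. SLC25A5, SLC25A3 and SLC25A6 held 7383 of these UMIs, which is 66.9% (66.0% to 67.8%). By substrate, the ADP/ATP carriers held 49.2% of the carrier UMIs, the phosphate, nucleotide and cofactor carriers 28.96%, and the amino acid, glutathione and S-adenosylmethionine carriers 10.8%. The carboxylate, keto acid and carnitine carriers held 7.27%, the uncoupling protein relatives 1.13%, the iron carriers 1.28% and the carriers of other or uncertain substrate 1.31%.

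**Figure D1:**
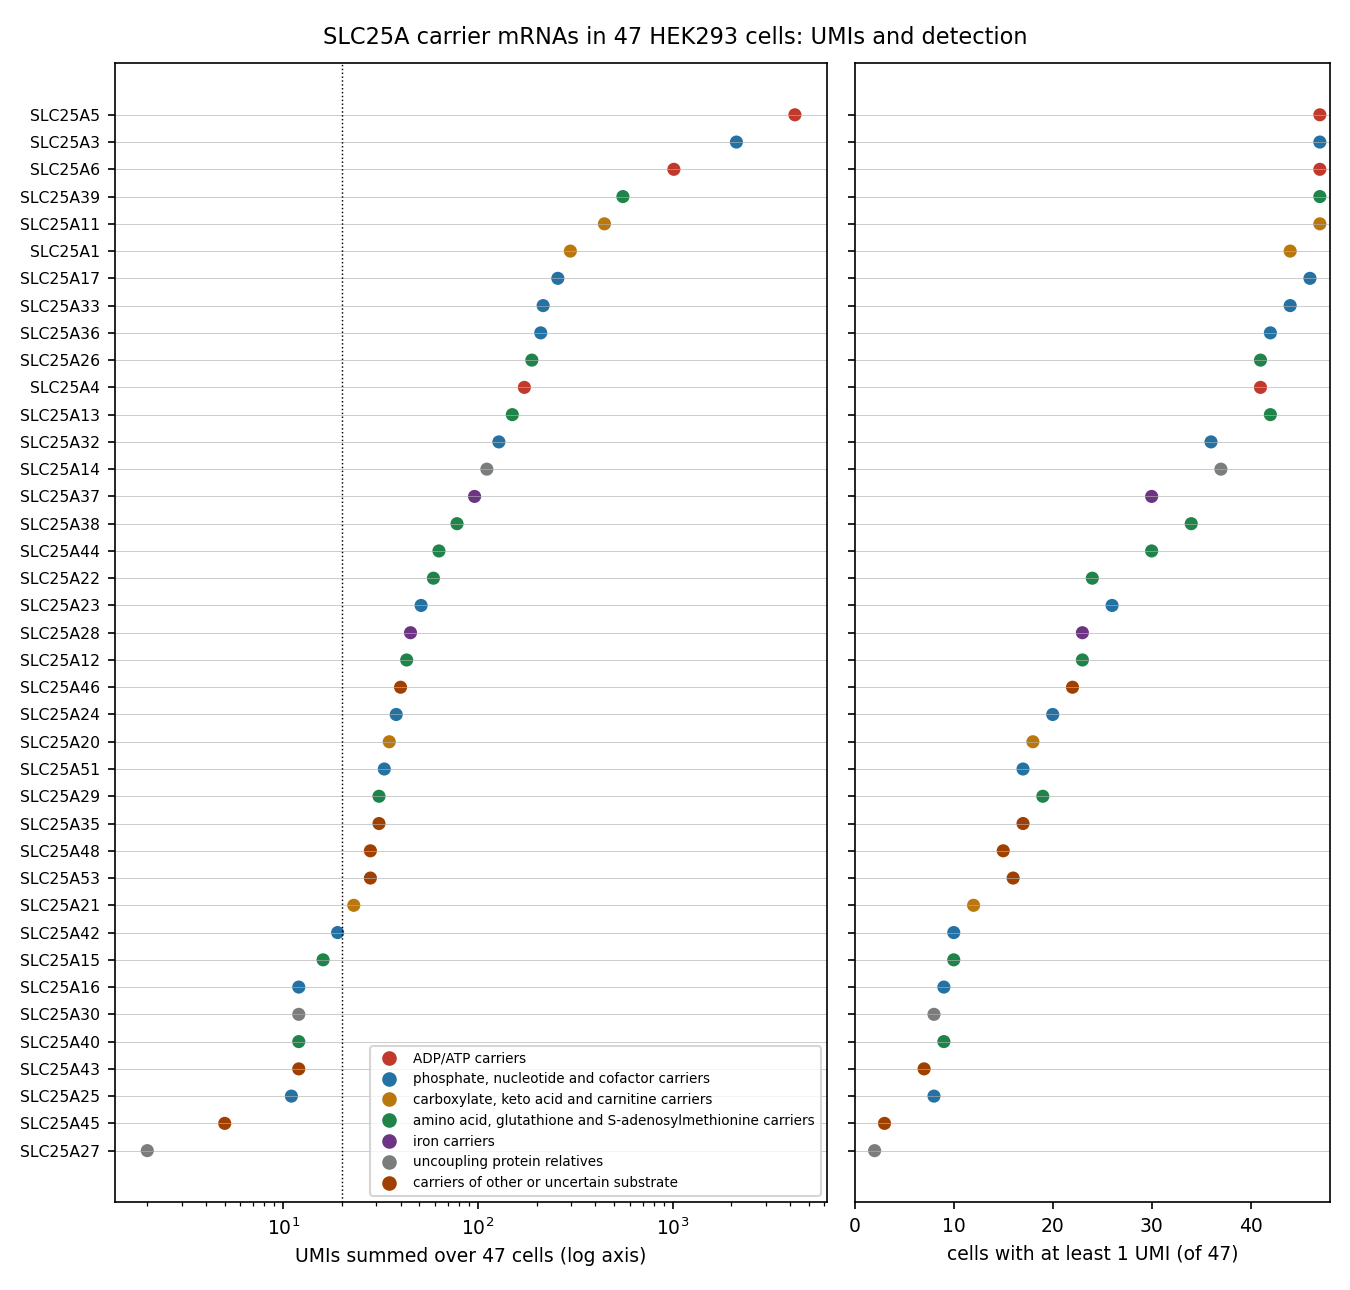
All but 1 of the 40 carriers with a UMI are listed by abundance, with UMIs summed over 47 cells on a log axis (left) and the number of cells with at least 1 UMI (right), coloured by substrate class; the dotted line marks 20 UMIs. SLC25A5 leads with 4244 UMIs and 9 carriers lie left of the line.

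Of the 41 carriers, 31 reached the 20 UMIs asked for in the tests, 9 had 1 to 19 UMIs and 1 had none. Over the whole table, 48.7% of the gene rows reached 20 UMIs. A UMI in every cell was found for 5 carriers (SLC25A5, SLC25A3, SLC25A6, SLC25A39 and SLC25A11), against 5.54% of all gene rows. The carrier at 0 was SLC25A47, known as a carrier of liver, and with no UMI among all those counted its share could be up to 0.000103%, which is 3 UMIs. The antisense and pseudogene rows held 12 of the 11046 SLC25A UMIs, 7 of them in SLC25A5-AS1, 2 each in SLC25A21-AS1 and SLC25A5P8 and 1 in SLC25A1P5, while SLC25A30-AS1 and SLC25A6P5 had none. Whether the counting used strand, and how reads that map to several places were treated, is not given in the sources used here, so these rows and the carriers they copy or face are uncertain to that extent. The ADP/ATP carriers have many processed pseudogenes and resemble each other, and SLC25A6 lies in the region shared by the X and Y chromosomes.

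The 3 ADP/ATP carriers share a substrate and differed widely in level. Their promoter windows and that of the phosphate carrier, the 4 genes that supply ADP, ATP and phosphate exchange, are shown because the tags were read from transcript 5' ends. The windows run from 100 bases before the annotated start to 20 bases from it, 5' to 3' on the strand of the gene, from RefSeq on build GRCh38.p14. Capitals mark the motif TATAA, the motif CCAAT, and any unbroken run of at least 4 pyrimidines at the start. The motif GGGCGG was also searched and is left in lower case. These 3 motifs were searched on both strands in the 100 bases before the start, the pyrimidine start on the strand of the gene.
SLC25A5, chrX:119468344-119468463, plus strand: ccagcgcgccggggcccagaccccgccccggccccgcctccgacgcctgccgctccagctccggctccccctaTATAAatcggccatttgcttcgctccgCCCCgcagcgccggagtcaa
SLC25A6, chrX:1392094-1392213, minus strand: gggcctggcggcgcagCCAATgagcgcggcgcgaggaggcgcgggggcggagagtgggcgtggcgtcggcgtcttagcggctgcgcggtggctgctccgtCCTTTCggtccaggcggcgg
SLC25A4, chr4:185143166-185143285, plus strand: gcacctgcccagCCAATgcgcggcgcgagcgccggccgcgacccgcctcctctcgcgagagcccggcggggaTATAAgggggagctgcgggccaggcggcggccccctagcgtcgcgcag
SLC25A3, chr12:98593586-98593705, plus strand: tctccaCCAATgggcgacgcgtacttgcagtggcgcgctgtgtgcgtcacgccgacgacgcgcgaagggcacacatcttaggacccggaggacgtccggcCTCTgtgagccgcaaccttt

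TATAA stood 27 bases before the start of SLC25A5 and 28 bases before that of SLC25A4, and no match was found in those 100 bases of SLC25A6 and SLC25A3. CCAAT stood 84 bases before the start of SLC25A6, 88 before that of SLC25A4 and 94 before that of SLC25A3, and the matches did not overlap. Within those 100 bases GGGCGG matched 1 time each for SLC25A5 and SLC25A6, and bases across or after the start were not counted. SLC25A6 was the gene of these 4 whose start was a C followed by at least 4 further pyrimidines, the start pattern that ribosomal protein genes are known for. Of the 41 carriers, 35 were matched by symbol, and of these 3 held TATAA, 14 CCAAT, 25 GGGCGG and 3 the pyrimidine start (SLC25A6, SLC25A21 and SLC25A22). Among all 27305 symbols, each with 1 or more windows, 11.1% held TATAA, 21.6% CCAAT, 35.3% GGGCGG and 5.14% the pyrimidine start. These are letter matches, and binding was not measured.

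SLC25A5, the ADP/ATP carrier known for growing cells, was the most abundant carrier, with 4244 UMIs and rank 114 among all gene rows. It held 20 UMIs in the lowest cell, 76 in the median cell and 204 in the highest, a mean of 90.3 ± 43.2 (SD, n = 47 cells). Scaled to 10000 endogenous UMIs, its level was 6.82 (cell 23), 14.3 (median) and 24.4 (cell 8), a range of 3.58-fold. Cells 8 and 56, at 24.4 and 22.8, were the highest, and cells 23, 55 and 52, at 6.82, 6.97 and 7.34, the lowest. Divided by the spike-in recovery of each cell, the UMIs stood for an estimated 499 ± 194 mRNA molecules per cell, a value that takes spike-ins and cellular mRNA to be captured alike.

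SLC25A6, the ADP/ATP carrier present in most human tissues, had 1014 UMIs and rank 424. Its UMIs per cell were 8 (lowest), 19 (median) and 49 (highest), a mean of 21.6 ± 9.59. The level ran from 1.36 per 10000 (cell 9) over a median of 3.49 to 8.93 (cell 44), a range of 6.58-fold. Cell 44 stood well above the next cell, cell 8 at 7.01. SLC25A4, the carrier of heart and skeletal muscle, had 173 UMIs in 41 cells, with 0, 3 and 11 UMIs in the lowest, median and highest cell.

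SLC25A5 had more UMIs than SLC25A6 in 47 of 47 cells. Of the ADP/ATP carrier UMIs, 78.1% were SLC25A5 (95% interval 77.0% to 79.2%), 18.7% SLC25A6 (17.6% to 19.7%) and 3.19% SLC25A4 (2.73% to 3.69%). In single cells the SLC25A5 part ranged between 51.3% (cell 23) and 89.9% (cell 69), and the SLC25A6 part between 7.27% (cell 9) and 42.1% (cell 44). SLC25A31, the testis member of the group, is not analysed here, nor are the other 6 listed family genes SLC25A2, SLC25A10, SLC25A18, SLC25A34, SLC25A41 and SLC25A52.

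**Figure D2:**
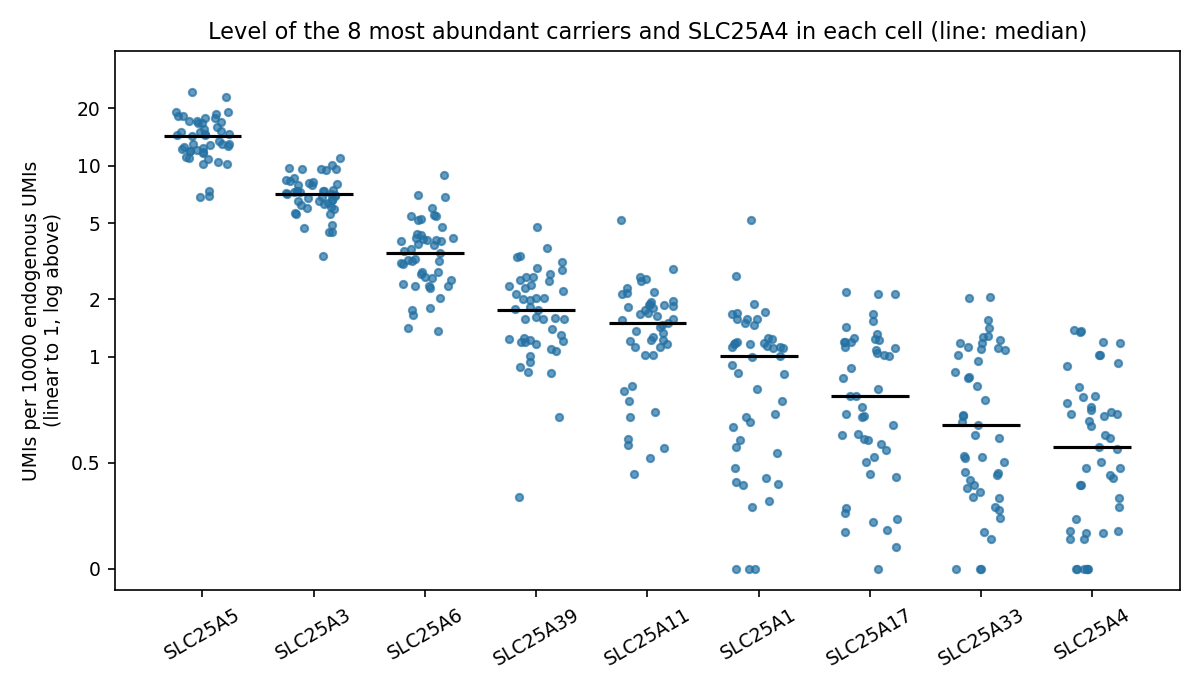
Each point is 1 of 47 cells, the y axis gives UMIs per 10000 endogenous UMIs (linear to 1, log above), and black lines are medians, for the 8 most abundant carriers and SLC25A4. SLC25A5 cells lie between 6.82 and 24.4, and cell 10 is the single high point at 5.23 for both SLC25A11 and SLC25A1.

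To measure how far carriers spread over cells, the UMIs of each gene were set against the number each cell should hold given its endogenous total. The chi-square statistic of that comparison over its 46 degrees of freedom is the index of dispersion, which is 1 where counting error is all there is. The test against counting error, with Benjamini-Hochberg adjustment over 9088 genes and a threshold of 0.05, was passed by 30 of 31 tested carriers, against 88.0% of all genes tested. The exception was SLC25A35 (index 1.29, adjusted p = 0.101). The spike-ins, which come from a common mix, also spread beyond counting error, with a median index of 2.11 over 52 of them. Single spike-ins ran from 0.757 to 3.97. Each index was therefore also set against the value expected from a line through the spike-ins, 2.28 at a mean of 1 UMI and 1.85 at a mean of 100. The test takes this line as exact and leaves out the scatter of single spike-ins around it. Past the line by this test were 2 of 31 carriers, SLC25A5 and SLC25A6, against 5.40% of all genes. At an unadjusted p under 0.05 it was also 2 of 31, and the share of all genes at that threshold was not computed. A distribution matched to the variance of the statistic also gave 2 of 31, against 3.09% of all genes. Over the tested carriers the median index was 1.82, with a range of 1.29 to 5.05, and over all genes tested it was 2.00. Below the spike-in line lay 22 of the 31 carriers, and the share of all genes below it was not computed. The cells come from 1 culture, so these p-values measure the spread between these cells.

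SLC25A5 had an index of 5.05 where the spike-ins gave 1.86 (adjusted p = 2.60e-07, index-of-dispersion test against spike-in noise, Benjamini-Hochberg). Without cell 8 its index was 4.66, and leaving out each cell in turn gave 4.52 to 5.16. SLC25A6 had an index of 4.05 where the spike-in line gave 1.98 and the highest single spike-in 3.97 (adjusted p = 0.00146 by the same test). Without cell 44 the index was 3.26 and the adjusted p of that test 0.0757, so the call for SLC25A6 rests on 1 cell. Among the 30 cells numbered up to 48 the index of SLC25A6 was 4.71 (adjusted p = 0.000581, same test) and among the 17 cells above 48 it was 1.10 (adjusted p = 1.00). SLC25A5 passed in both sets of cells, with an index of 4.18 (adjusted p = 0.00135, same test) up to 48 and 6.42 (adjusted p = 0.000350) above 48. The numbers are those in the labels, and the difference between the sets was not tested. With a single gamma-Poisson dispersion fitted to all spike-ins in place of the line, 30 of the 31 carriers passed, and so did 7959 of the 9088 genes tested. With spike-in UMIs in place of endogenous UMIs as the measure of cell size SLC25A3 and SLC25A39 passed too. In that setting 1299 of the 9088 genes passed, against 491 in the main one.

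**Figure D3:**
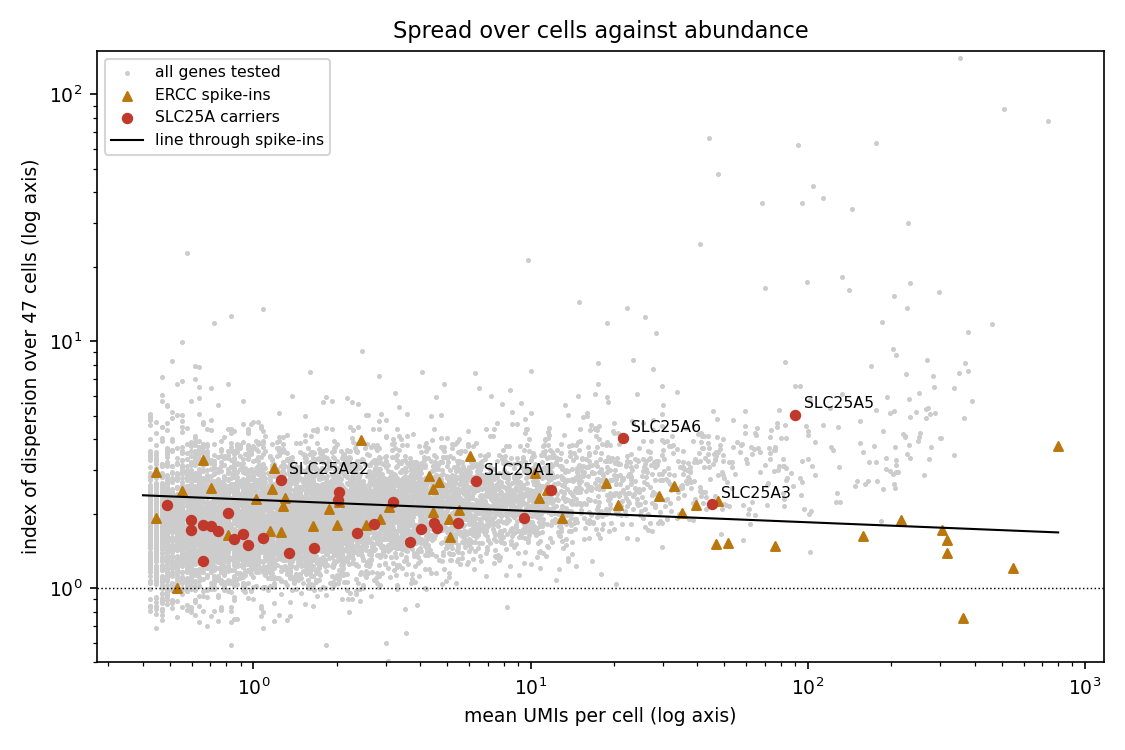
The index of dispersion over 47 cells is plotted against mean UMIs per cell, both on log axes, for 31 carriers (circles), 52 spike-ins (triangles) and 9088 genes (grey points), with the line through the spike-ins and a dotted line at 1. SLC25A5 at 5.05 and SLC25A6 at 4.05 lie above the spike-in line. Below it lie 22 carriers, and the share of all genes below it was not computed.

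The balance of SLC25A5 and SLC25A6 was also followed within each cell, as a share of the UMIs of the pair. SLC25A6 made up 19.3% of the UMIs of the pair over all cells. The exact 95% interval of a cell lay above that value in 3 cells (15, 23 and 44) and below it in 7 cells (5, 9, 21, 43, 56, 62 and 69). The split had an index of 3.21, against a median of 2.05 and a range of 1.58 to 2.93 in 40 pairs of spike-ins whose UMIs were within 2-fold of those of the carriers. These pairs share 13 spike-ins, 5 on the SLC25A5 side and 8 on the SLC25A6 side, so the range is a description and no p was computed. Without cell 44 the index of the split was 2.47, inside the range of the spike-in pairs, and without cells 44 and 23 it was 2.19. It was 3.85 in the cells numbered up to 48 and 1.63 in those above.

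**Figure D4:**
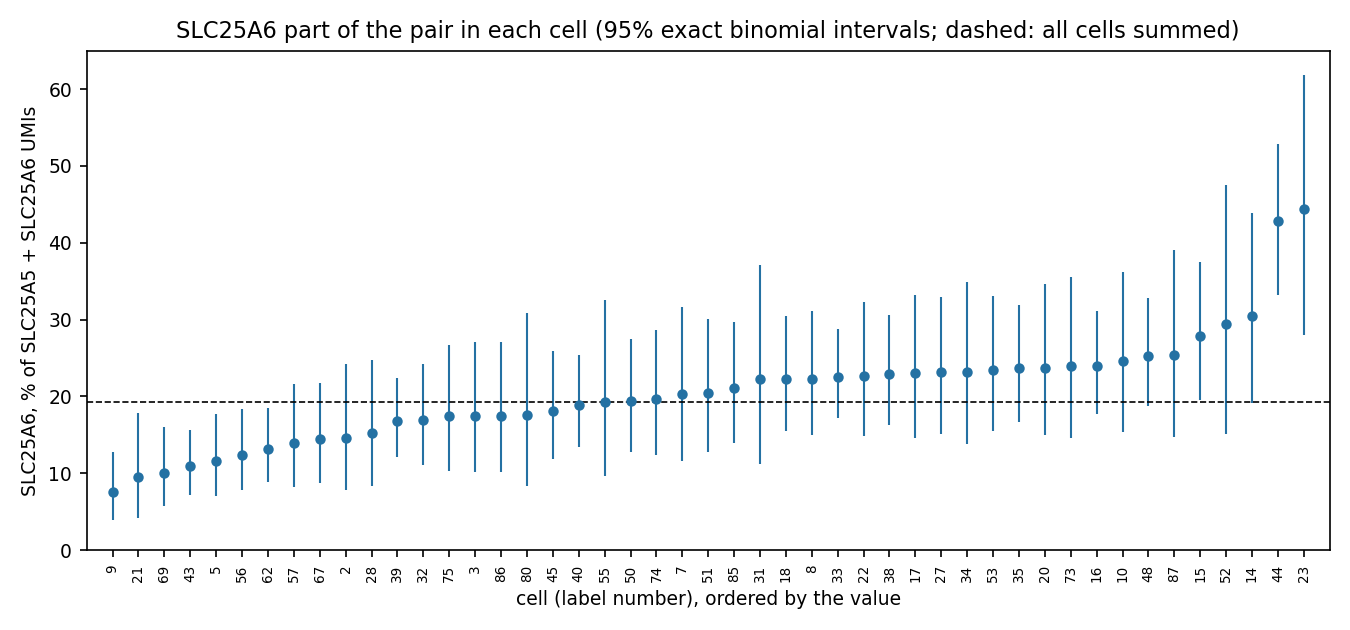
The SLC25A6 part of the UMIs of SLC25A5 and SLC25A6, in percent, is plotted for each of 47 cells ordered by the value, with exact 95% binomial intervals and a dashed line at the 19.3% of all cells summed. Cells 44 and 23 stand above the rest at the right, and the intervals of 7 cells at the left end below the line.

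Across the 47 cells the SLC25A6 part of the pair had a Spearman rho of -0.54 to the endogenous UMIs of the cell (-0.48 in cells up to 48, -0.63 above, -0.50 without cells 44 and 23). Endogenous UMIs, which hold both depth and the mRNA content of a cell, ran from 29325 to 138647. Spike-in UMIs ran from 2573 to 4717, and no rho to them was computed. The level of SLC25A6 had a rho of 0.47 to the summed share of 84 ribosomal protein mRNAs (0.50 up to 48, 0.21 above), and SLC25A5 one of -0.08. SLC25A5 had a rho of -0.40 to the share of mitochondrially encoded mRNAs (-0.36 without cell 52, -0.27 up to 48, -0.51 above). SLC25A3 had one of -0.36 to that share (-0.52 up to 48, 0.14 above). Levels of SLC25A5 and SLC25A6 went together weakly, with a rho of 0.27. Among the 28 pairs of the 8 most abundant carriers the median rho was 0.09, with a range of -0.27 to 0.30. These are descriptions over cells of 1 library pool that share a denominator and depth. The parts of depth and of the mRNA content of the cell in them were not tested.

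SLC25A3, the phosphate carrier, was second in abundance with 2125 UMIs and rank 211. It held 19, 40 and 112 UMIs in the lowest, median and highest cell, a mean of 45.2 ± 21.4, and 3.35 (cell 53), 7.10 (median) and 10.9 (cell 35) per 10000. Its index was 2.19 where the spike-ins gave 1.92 (adjusted p = 0.930, same test), so it did not pass. Recovery-corrected, it stood at 250 ± 94.2 molecules per cell, while SLC25A6 stood at 122 ± 50.98.

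Nucleotide and cofactor carriers came well below. SLC25A17, known as the peroxisomal carrier of coenzyme A and related cofactors, had 257 UMIs in 46 cells, with 0, 5 and 14 in the lowest, median and highest cell. The 2 pyrimidine nucleotide carriers were nearly level: SLC25A33 had 216 UMIs (0, 4 and 14 per cell) and SLC25A36 210 UMIs (0, 4 and 13), so that SLC25A33 held 50.7% of the pair (45.8% to 55.6%). SLC25A33 was ahead in 22 cells and SLC25A36 in 22 cells. SLC25A32, the folate carrier, had 128 UMIs in 36 cells (0, 2 and 10 per cell). Among the calcium-regulated ATP-Mg/phosphate carriers, SLC25A23 had 51 UMIs (0, 1 and 7 per cell), SLC25A24 38 and SLC25A25 11. The NAD carrier SLC25A51 had 33 UMIs, the coenzyme A carrier SLC25A42 19 and SLC25A16 12. All 9 tested members of the class passed counting error (88.0% of all genes tested) and 0 passed spike-in noise (5.40% of all genes tested).

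SLC25A39 led the amino acid, glutathione and S-adenosylmethionine carriers. It imports glutathione, had 555 UMIs with 1, 10 and 36 in the lowest, median and highest cell, and its level ran from 0.341 (cell 23) to 4.81 (cell 7) per 10000. Its paralog SLC25A40 had 12 UMIs in 9 cells, so SLC25A39 held 97.9% of the pair (96.3% to 98.9%) and more UMIs in 47 of 47 cells. SLC25A26, which imports S-adenosylmethionine, had 189 UMIs in 41 cells (0, 4 and 15 per cell).

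The aspartate-glutamate carriers, part of the malate-aspartate shuttle, were used unequally. SLC25A13 had 150 UMIs in 42 cells (0, 2 and 15 per cell) and SLC25A12, known from brain and muscle, 43 in 23 cells, so that SLC25A13 held 77.7% (71.2% to 83.4%). Cell 27 held 15 UMIs of SLC25A13, and without it the index was 1.34 in place of 2.23. SLC25A38, the glycine carrier needed for heme synthesis, had 78 UMIs in 34 cells (0, 1 and 6 per cell), and SLC25A44, a carrier of branched-chain amino acids, 63 in 30 cells (0, 1 and 6). The glutamate carrier SLC25A22 had 59 UMIs in 24 cells (0, 1 and 13), with 13 of them in cell 33. Its index of 2.73 was 1.52 without that cell. The basic amino acid carrier SLC25A29 had 31 UMIs and the ornithine carrier SLC25A15 16. None of the 8 tested members passed spike-in noise at an adjusted p under 0.05 (5.40% of all genes tested), and all 8 passed counting error (88.0% of all genes tested).

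In the carboxylate group, SLC25A11, which exchanges oxoglutarate for malate, had 446 UMIs with 2, 9 and 26 in the lowest, median and highest cell. SLC25A1, which exports the citrate used for fatty acid synthesis, had 298 UMIs in 44 cells (0, 6 and 17 per cell). Cell 10 was the highest cell for both by level. It held 17 UMIs of each gene, 5.23 per 10000, while the highest other cell reached 2.64 for SLC25A1 and 2.87 for SLC25A11. The class made up 0.105% of the UMIs of cell 10, against 0.0487% in the next cell, cell 69. Cell 10 was among the shallow cells, with 32527 endogenous and 2971 spike-in UMIs. Without it the index was 1.59 in place of 2.72 for SLC25A1 and 1.34 in place of 1.92 for SLC25A11, and Pearson's r between the levels of both genes was 0.02 in place of 0.51. Over all 47 cells their rho was 0.07. The carnitine-acylcarnitine carrier SLC25A20 had 35 UMIs in 18 cells and the oxodicarboxylate carrier SLC25A21 23 in 12 cells. All 4 passed counting error (88.0% of all genes tested) and 0 passed spike-in noise (5.40% of all genes tested).

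The iron carriers, the mitoferrins, had 96 UMIs for SLC25A37, known from red cell precursors, and 45 for SLC25A28, known from other tissues. SLC25A37 thus held 68.1% of the pair (59.7% to 75.7%). By level SLC25A37 was highest in cell 52, at 1.53 per 10000, and cell 43, the cell with the most endogenous UMIs, held 0.938. SLC25A37 was found in 30 cells (0, 1 and 13 UMIs per cell, 13 of them in cell 43) and SLC25A28 in 23. Both were seen in 16 cells, SLC25A37 alone in 14, SLC25A28 alone in 7 and neither in 10, where independent counting error at these totals would give 23.98, 15.4, 3.97 and 3.65 cells. By counting error alone SLC25A37 would be found in 39.4 cells and SLC25A28 in 27.9. The expected numbers for the pair thus carry the shortfall of each gene by itself, and whether the 2 avoid each other was not tested. The indices of SLC25A37 and SLC25A28, 2.46 and 1.49, did not pass spike-in noise.

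Among the uncoupling protein relatives, SLC25A14 had 111 UMIs in 37 cells (0, 2 and 8 per cell), SLC25A30 had 12 and SLC25A27, known from neurons, 2. Of the carriers with other or uncertain substrates, SLC25A46, an outer membrane protein of mitochondrial dynamics, had 40 UMIs, SLC25A35 had 31, SLC25A48 and SLC25A53 had 28 each, SLC25A43 had 12 and SLC25A45 had 5. None of the 5 tested members of these groups passed spike-in noise (adjusted p = 1, same test), against 5.40% of all genes tested.

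A cell showed 13 (cell 8) to 32 (cell 62) of the 41 carriers by at least 1 UMI, with a median of 23. Asking for 2 UMIs gave a median of 17, and thinning every cell to 29325 UMIs gave an expected median of 18.2, with a range of 12.5 to 22.2. Absence of a UMI in a cell is therefore not absence of the mRNA. Of the 31 tested carriers, 26 lacked a UMI in some cells, and all 26 were found in fewer cells than counting error at their totals would give. SLC25A37 was found in 30 cells where 39.4 would be expected, and SLC25A22 in 24 where 32.3 would be. Spike-in counts spread beyond counting error as well, as did 88.0% of all genes tested. The same count of cells was not made for all genes, and whether the shortfall is larger for carriers was not tested.

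**Figure D5:**
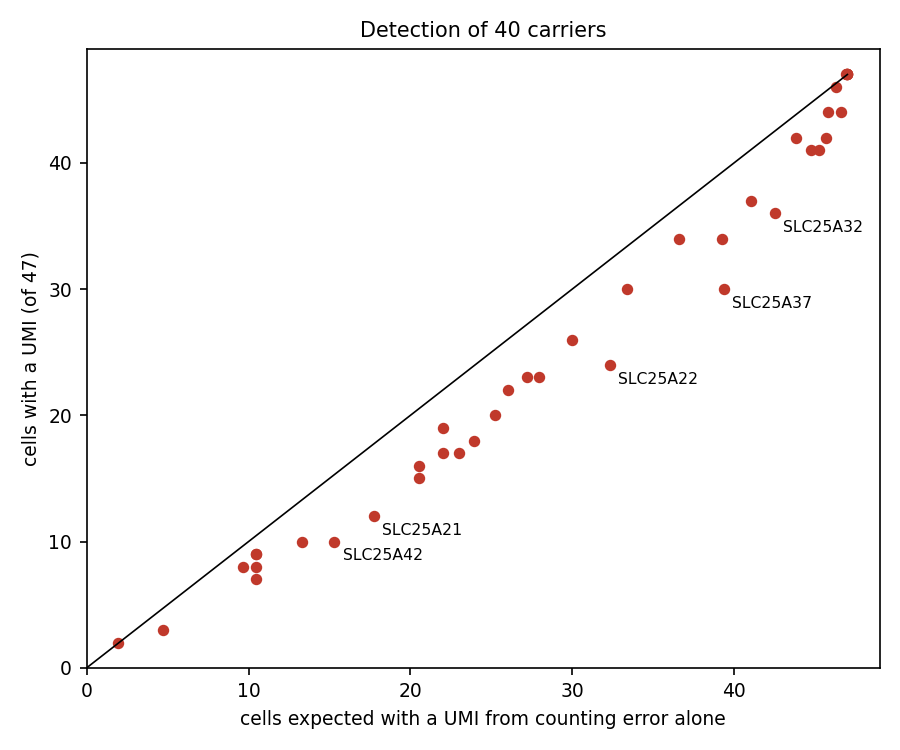
The number of cells with a UMI is plotted against the number expected from counting error alone, for the 40 carriers with a UMI; the line marks equality. Carriers of middle abundance lie below the line, such as SLC25A37 with 30 cells against 39.4 expected.

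Family members under other symbols and other mitochondrial lists were also measured, and their counts stand beside the 88.0% of all tested genes past counting error and the 5.40% past spike-in noise. MTCH2, an insertase of the outer membrane, had 629 UMIs, UCP2 had 377, MTCH1 had 359 and UCP3 had 5. All 3 tested passed counting error and 0 passed spike-in noise. The carrier import and assembly list, which holds the outer membrane receptor and channel and the small chaperones that bring carriers to the inner membrane, had 12 tested genes, 12 past counting error (88.0% of all genes) and 2 past spike-in noise (5.40% of all genes). These were TIMM10 (index 4.31, adjusted p = 0.000366, same test) and TIMM8B (index 3.51, adjusted p = 0.0218). The index of TIMM8B lay inside the range of single spike-ins, 0.757 to 3.97. TIMM13 was the most abundant with 1601 UMIs, followed by TOMM40 with 1143.

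Other mitochondrial metabolite and ion transporters had 20 tested genes, 20 past counting error and 0 past spike-in noise, led by the outer membrane pores VDAC3 with 1335 UMIs and VDAC2 with 1200. The malate-aspartate shuttle and citrate enzymes had 12 tested genes, 9 past counting error (88.0% of all genes) and 0 past spike-in noise (5.40% of all genes), led by MDH2 with 1584 UMIs and MDH1 with 1238. The folate and heme enzymes had 15 tested, 12 past counting error and 0 past spike-in noise. The mitochondrially encoded mRNAs, products of the organelle's own genome, passed counting error in 13 of 13 genes and spike-in noise in 12. These counts include cell 52, with 12.1% of its UMIs from these mRNAs against at most 5.02% in the other cells. Counts without cell 52 are not given.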

How the data were processed

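The authors deposited UMI counts, whole numbers for each gene in each cell that were not normalized, per the file headers and the values. Per the submitters' processing notes, cutadapt 1.2.1 and STAR 2.4.0a were used, with the builds hg19 and GRCh37. The annotation, the collapsing of UMIs, the use of strand, the treatment of multi-mapping reads and the filter on cells are not given in the sources used here. The header recurs as a line of numbers (0.0602% of all values), which was dropped because it belongs to no gene, and 0 columns remained without a cell. The 78 spike-in rows were kept out of the totals.

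Every row starting with SLC25A was a member. Lowest, median and highest values are given for the ADP/ATP carriers, for members averaging 1 or more UMIs a cell and for members past spike-in noise; 1 carrier is counted in the totals and is not reported here by itself. The members, gene lists and tests were chosen with earlier results of these data known. The index of dispersion was computed over 9088 genes with at least 20 UMIs. Its p came from the chi-square distribution with 46 degrees of freedom, directly against counting error, and after division by the index expected from a log-log line through 52 spike-ins against spike-in noise, with Benjamini-Hochberg adjustment. The test was checked on simulated data. Intervals are exact binomial (95%) and cover counting error only; limits on counts of 0 are 3 counts of the total. Molecules per cell are UMIs divided by the cell's spike-in recovery. Size factors came from edgeR 4.0.16 (TMM) and DESeq2 1.42.0, the rest from Python 3.11.15 and scipy 1.17.1. Promoter windows are of another build than the table and were matched by symbol.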

Additional observations from a re-analysis of the deposited data

How the results depend on the processing

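The 2 carriers past spike-in noise and the 30 past counting error were recomputed under other cell sizes, minimum counts and sets of cells. The number past spike-in noise stayed at 2 with TMM, DESeq2 size factors, totals without mitochondrially encoded genes, every minimum count tried, without cell 52 and in the cells numbered up to 48. It was 4 with spike-in UMIs as cell size, 30 with a single gamma-Poisson dispersion and 1 in the cells above 48, and leaving out each cell in turn gave 1 to 2, the lower value without cell 44. All genes past spike-in noise numbered 491, and 1299 with spike-in UMIs as cell size, 7959 with the single dispersion and 200 in the cells above 48, with 455 to 572 on leaving out each cell. A distribution matched to the variance of the statistic, added after the data were seen because the chi-square form passes too many sparse genes, gave 281 (3.09%) and kept the carrier count at 2, with adjusted p = 8.31e-07 for SLC25A5 and 0.00609 for SLC25A6. Carriers past counting error numbered 14 at a minimum of 100 UMIs, where fewer genes were tested. They numbered 17 in the cells up to 48 and 9 above, where fewer cells were tested, and 26 to 30 on leaving out each cell. The share of all genes past counting error was not computed in these settings, so these counts are not read as a result about carriers. The index of the SLC25A5 to SLC25A6 split was 1.63 in the cells above 48 and 2.47 to 3.28 on leaving out each cell, and the cause was not tested. The median number of carriers per cell was 18.2 after thinning and 17 at 2 UMIs. The share of carriers was 0.376% to 0.381%, that of SLC25A5 77.8% to 78.6% and that of SLC25A6 18.2% to 19.04% on leaving out each cell. The spike-in noise call for SLC25A5 held in every setting. That for SLC25A6 was lost without cell 44 and in the cells above 48. Of the rho values given for both sets of cells, 1 changed sign: SLC25A3 to the share of mitochondrially encoded mRNAs, -0.52 up to 48 and 0.14 above. With a median of 59689 UMIs per cell, carriers with under 1 UMI per cell could not be ranked within cells. No paired analysis was possible because all cells form 1 group.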
